A study of Mus musculus with 24 samples.

Results

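Round spermatids of Ago413-/- (null) males were compared with round spermatids of Ago413+/- (heterozygous) males by bulk RNA-seq, in 4 libraries of each genotype out of 24 libraries in the series. The Ago413 allele is a constitutive deletion on chromosome 4 that takes away all of Ago1 and parts of its neighbours Ago3 and Ago4, so that null males lack both intact copies and heterozygous males keep a single one. The line was made in embryonic stem cells of the 129 strain, the floxed region was deleted with a Sox2-cre mouse, and the allele was then kept on a C57BL/6J background. All males were 10 to 15 weeks old. Each library came from cells of 2 to 5 mice of one genotype, so a library is a pool of animals. The labels put the purity of the pooled sedimentation fractions above 70%, and the study's methods give a higher range for round spermatids, so some cells of other types may be present. Of 55536 genes in the table, 18878 had 10 or more counts in at least 3 of these 8 libraries and were tested.

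Argonaute proteins hold small RNAs, such as microRNAs, and use them to find messengers that pair with them, which are then kept from translation or degraded with the help of GW182 proteins and deadenylases. In the testis, members of the family have also been located to the nucleus of spermatocytes. Round spermatids are the haploid cells that follow the meiotic divisions. They build the acrosome and the flagellum, store messengers for later translation, and keep the X and Y chromosomes less active than the autosomes after the silencing of these chromosomes in meiosis.

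The 8 libraries held from 18522612 to 25887128 counts. Levels are given as CPM, a gene's count relative to the scaled total of its library. They are not divided by gene length, so they are compared between libraries. Ranks between genes, such as the most abundant of a list, are by CPM alone and take no account of length. The tests used edgeR on all 3 genotypes of round spermatids, where 3 wild-type (Ago413+/+) libraries added to the estimate of the spread and a wild-type library that the labels call an outlier was left out. The labels also number the libraries, without saying what the number stands for. Heterozygous replicates 1 to 3 and null replicates 1 and 2 have numbers up to 60, while heterozygous replicate 4 and null replicates 3 and 4 have numbers above 60. The labels set no cut at 60. The 2 parts often went opposite ways, so differences within them are given for many of the genes and lists. Every difference above 60 rests on heterozygous replicate 4 as the only heterozygous library. Markers of the labelled cell type were present. In heterozygous libraries the 11 spermatid markers summed to 15630 to 34730 CPM and the 8 spermatocyte markers to 342 to 577 CPM. In null libraries these sums were 21830 to 38280 CPM and 300 to 445 CPM. The study's list for diplotene and the meiotic divisions summed to 7186 to 9434 CPM in heterozygous and 6504 to 7732 CPM in null libraries. All are sums over different genes, so they do not give the purity. In bulk RNA, fewer cells of a type and less RNA per cell cannot be told apart.

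Ago1 (ENSMUSG00000041530; chromosome 4, 126435012 to 126468583, GRCm38), the gene that the deletion removes whole, checked the labels. It stood at 3.05, 2.42, 2.03 and 2.05 CPM in the 4 heterozygous libraries and had 0 counts in all 4 null libraries. The groups did not overlap. With the limit of 3 counts that a count of 0 allows in each library (0.158 CPM in the shallowest), Ago1 was at least 15.1-fold lower in the null (edgeR adjusted p = 0.000189), and the 3 wild-type libraries averaged 3.30 CPM. The limit covers counting error only.

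Ago3 (ENSMUSG00000028842), whose gene is cut by the deletion and which still gives a chimeric messenger with early stop codons according to the study's methods, did not follow genotype in a simple way. It stood at 15.6, 24.4, 19.4 and 17.6 CPM in heterozygous libraries. The null libraries split into 14.7 and 15.0 CPM in replicates 1 and 2 and 43.4 and 38.2 CPM in replicates 3 and 4. Thus the groups overlapped, with the null libraries numbered up to 60 below every heterozygous library and those above 60 higher than every heterozygous library. The log2 fold change of 0.53 (SE 0.31) did not pass the test (edgeR adjusted p = 0.689), and within the parts the difference of mean log2 CPM was -0.39 up to 60 and 1.21 above 60. The wild-type mean was 4.29 CPM. Of the 31-base words in Ago3 transcripts, 0.845% also occur in Ago1 transcripts, and a count for the whole gene does not tell which exons gave the reads.

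Ago4 (ENSMUSG00000042500), the other gene cut by the deletion, stood at 11.9, 14.6, 11.5 and 11.9 CPM in heterozygous and 10.1, 8.71, 12.4 and 9.65 CPM in null libraries, which overlapped (log2 fold change -0.29, SE 0.16, edgeR adjusted p = 0.669). Ago2 (ENSMUSG00000036698) lies on chromosome 15 and encodes the Argonaute best known for cutting its targets. Its levels were 3.16, 7.06, 4.52 and 4.2 CPM against 2.14, 2.39, 4.63 and 4.17 CPM, and they overlapped as well (log2 fold change -0.51, SE 0.30, edgeR adjusted p = 0.687). Within the parts the difference for Ago2 was -1.01 up to 60 and 0.06 above 60. Of the 4 Argonaute genes, Ago1 alone passed the test.

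**Figure D1:**
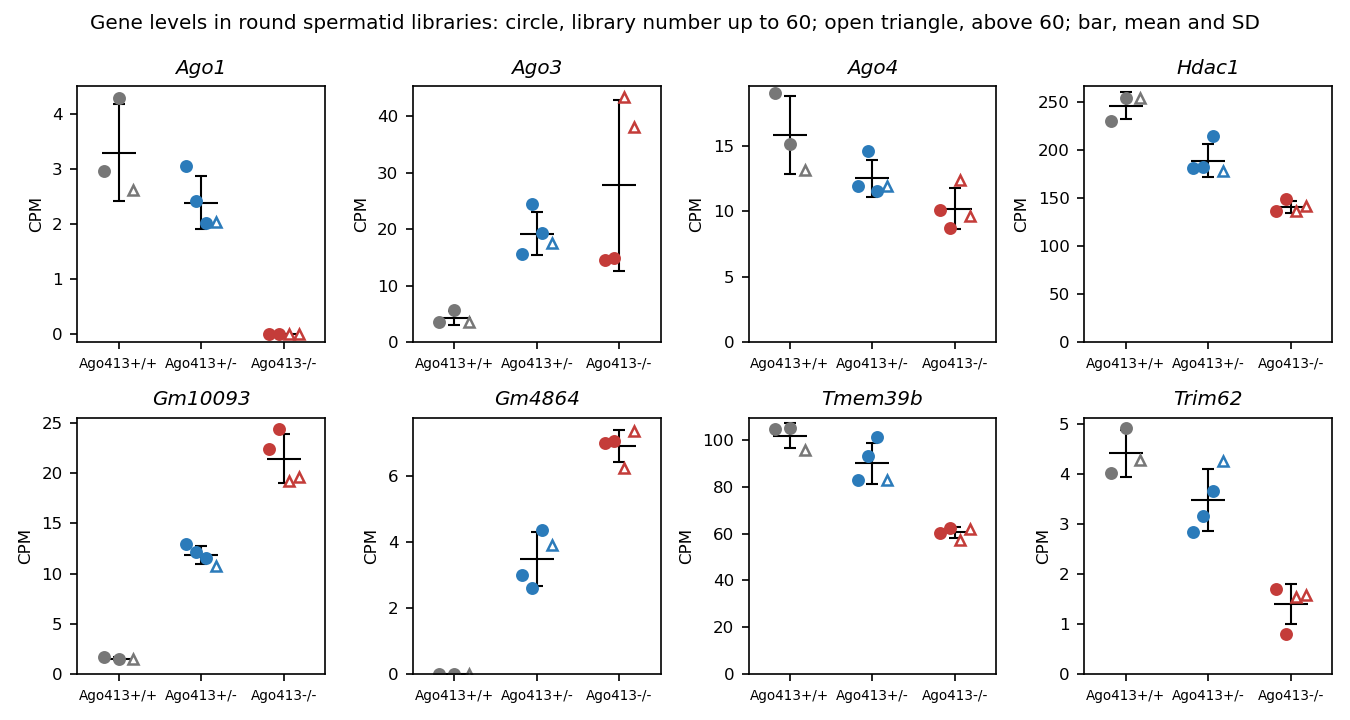
CPM of 8 genes in each round spermatid library of the 3 genotypes (gray, Ago413+/+; blue, Ago413+/-; red, Ago413-/-), with filled circles for library numbers up to 60, open triangles for numbers above 60, and a bar at the mean with the SD. Ago1 was at 0 in every null library, the null libraries of Ago3 split by library number, and Hdac1, Gm10093, Gm4864, Tmem39b and Trim62 had null and heterozygous libraries that did not overlap.

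Beyond Ago1, no gene passed the threshold of an adjusted p-value under 0.05 with an absolute log2 fold change above 0.5 in edgeR, so 1 of 18878 genes was called (0.00530%). At an unadjusted p-value under 0.05 there were 1462 genes (7.74%), of which 706 were higher in the null (3.74%) and 756 lower (4.0%). DESeq2, the tool of the study, called 19 genes (0.101%), 11 higher and 8 lower, and it gave no adjusted p-value for 371 genes. When heterozygous replicate 4 was left out, edgeR called 2 genes, Ago1 and Ttc22. All null libraries lay above all heterozygous libraries for 303 genes (1.61%) and below them for 459 (2.43%), together 762 genes (4.04%). Most differences were small against their error: the median absolute log2 fold change was 0.18, 90.7% of genes were under 0.5, and the median standard error was 0.21, or 0.15 among the 10479 genes with a mean of 5 CPM or more. The first principal component, with 34.0% of the variance, ran from null replicates 1 and 2 at one end to heterozygous replicates 3 and 2 at the other, with the remaining 4 libraries in between.

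**Figure D2:**
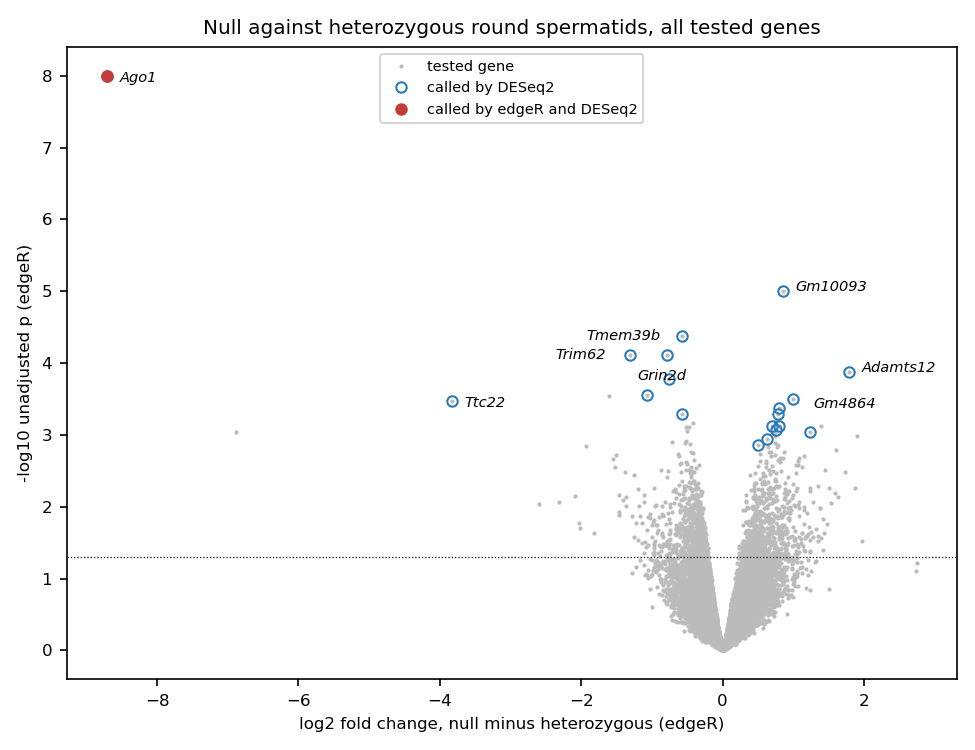
Each point is a tested gene, with the log2 fold change of null minus heterozygous round spermatids on the x axis and the -log10 of the unadjusted edgeR p-value on the y axis. Blue rings mark genes called by DESeq2, the red point is Ago1, the only gene called by both tools, and the dotted line stands at a p-value of 0.05.

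The gene with the smallest p-value after Ago1 was Gm10093 (ENSMUSG00000061062), a processed pseudogene on chromosome 17, and Gm4864 (ENSMUSG00000112003), a processed pseudogene on chromosome 12, was among the genes that DESeq2 called. Both are copies of the messenger of Hdac1 (ENSMUSG00000028800), a histone deacetylase of the Sin3, NuRD and CoREST complexes whose gene lies on chromosome 4 at 129516104 to 129542713, 3.08 Mb from Ago1. Over 1444 aligned bases Gm10093 differed from the Hdac1 messenger at 9, an identity of 99.4%, with a longest identical run of 450 bases. Gm4864 differed at 54 of 1443 aligned bases, an identity of 96.3%, and its longest identical run was 101 bases. The following 90 bases, from exon 5 of 14 of Hdac1 and the same stretch of the pseudogenes (GENCODE transcripts, release 21, GRCm38), hold 6 of the 9 bases by which Gm10093 differs, and they are shown because they hold the densest set of the few bases that set Gm10093 apart. The other differences, 3 of Gm10093 and most of those of Gm4864, lie elsewhere. Capitals mark the bases at which a pseudogene differs from Hdac1.
Hdac1, chr4:129522975-129523064, minus strand: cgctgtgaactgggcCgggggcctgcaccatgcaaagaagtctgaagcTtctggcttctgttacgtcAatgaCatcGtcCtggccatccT
Gm10093, chr17:78491974-78492063, plus strand: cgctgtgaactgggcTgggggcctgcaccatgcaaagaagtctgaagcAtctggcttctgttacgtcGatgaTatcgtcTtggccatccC
Gm4864, chr12:77624528-77624617, minus strand: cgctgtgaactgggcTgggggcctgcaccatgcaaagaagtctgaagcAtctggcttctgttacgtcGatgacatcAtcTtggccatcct
At 4 of the 7 marked positions both pseudogenes hold the same base and Hdac1 another.

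Hdac1 stood at 182, 182, 215 and 178 CPM in heterozygous and 137, 150, 137 and 142 CPM in null libraries. Every null library lay below every heterozygous one, and the wild-type mean was 246 CPM. The log2 fold change was -0.42 (SE 0.10), which did not pass with edgeR (adjusted p = 0.622), and with DESeq2 the adjusted p was 0.0211 but the fold change was under the threshold. Gm10093 stood at 12.9, 12.2, 11.6 and 10.7 CPM in heterozygous and 22.4, 24.4, 19.3 and 19.6 CPM in null libraries, again without overlap but with the null higher, and the wild-type mean was 1.53 CPM. The difference was 0.85 on the log2 scale (SE 0.13), with an adjusted p of 0.0947 in edgeR and 3.67e-06 in DESeq2. Gm4864 had 3.00, 2.60, 4.38 and 3.93 CPM in heterozygous libraries, 7.00, 7.08, 6.24 and 7.38 CPM in null libraries and 0 counts in the wild-type libraries. The difference was 0.99 (SE 0.20), with an adjusted p of 0.578 in edgeR and 0.00309 in DESeq2.

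The pseudogenes and Hdac1 can also be read together, since 86.1% of the 31-base words of Gm10093 and 25.8% of those of Gm4864 occur in Hdac1 transcripts and a read of such words cannot be assigned to a single gene. Counts assigned to the pseudogenes made up 8.05, 7.49, 6.93 and 7.60% of the sum of the 3 genes in heterozygous libraries and 17.7, 17.4, 15.7 and 16% in null libraries. The wild-type share was 0.620 ± 0.0873% (SD, n = 3). The sum itself was 205 ± 17.4 CPM (SD, n = 4) in heterozygous and 170 ± 8.10 CPM (SD, n = 4) in null libraries, with all null libraries below all heterozygous ones. The 3 wild-type libraries had a sum of 248 ± 14.1 CPM (SD, n = 3). The pseudogenes were thus higher by less CPM than Hdac1 was lower. Reads that fit several places are not counted, so the sum is not a fixed total. The part of read assignment among these genes in the differences was not tested. The sequence of the 129 strain, in which the deleted allele was made, was not used here, so reads could not be checked against it.

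Other genes close to the deletion were looked at next. Within 5 Mb of Ago1, and apart from Ago1, 138 genes were tested and 21 had an unadjusted p-value under 0.05 (15.2%, 11 higher and 10 lower), compared with 7.64% on other chromosomes. The share was 6.42% at 5 to 10 Mb, 10.0% at 10 to 20 Mb, 6.78% at 20 to 40 Mb and 9.66% farther away on chromosome 4. Null and heterozygous libraries did not overlap for 11 of the 138 genes (7.97%), against 4.0% on other chromosomes. Differences around the locus went in both directions, and the median log2 fold change of the 111 tested protein-coding genes there was -0.02, like that of all tested genes (-0.02).

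Tmem39b, which encodes a membrane protein, lies 3.23 Mb from Ago1 (chromosome 4, 129676355 to 129696838). It stood at 83.1, 93.0, 101 and 82.9 CPM in heterozygous and 60.1, 62.6, 57.4 and 62.1 CPM in null libraries, without overlap. The log2 fold change was -0.57 (SE 0.10), with an adjusted p of 0.266 in edgeR and 1.28e-05 in DESeq2, and the wild-type mean was 101.8 CPM. Trim62, a RING-type ubiquitin ligase at 128883580 to 128911328, stood at 2.84, 3.16, 3.67 and 4.26 CPM against 1.69, 0.796, 1.53 and 1.58 CPM (log2 fold change -1.31, SE 0.24, edgeR adjusted p = 0.296, DESeq2 adjusted p = 0.00104). No library of one group reached the range of the other for this gene, and the wild-type mean was 4.42 CPM. Neither Tmem39b nor Trim62 shares a 31-base word with another gene. Zbtb8os, the archease of the tRNA ligase complex, which shares 23.2% of its words with other genes, was on the other side, with 22.6, 27.5, 24.2 and 19.3 CPM against 32.3, 31.3, 35.0 and 36.3 CPM (log2 fold change 0.53, SE 0.14, edgeR adjusted p = 0.622). Phc2, a Polycomb repressive complex 1 subunit, stood at 63.6, 53.5, 61.3 and 60.3 CPM against 70.8, 75.0, 75.0 and 70.0 CPM, also without overlap (log2 fold change 0.29, SE 0.10, edgeR adjusted p = 0.622). The wild-type mean was 19.6 CPM for Zbtb8os and 35.9 CPM for Phc2, below the heterozygous libraries' means of 23.4 and 59.7 CPM. Tmem35b and AU040320 had all null libraries below all heterozygous ones, at log2 fold changes of -0.87 and -0.36.

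**Figure D3:**
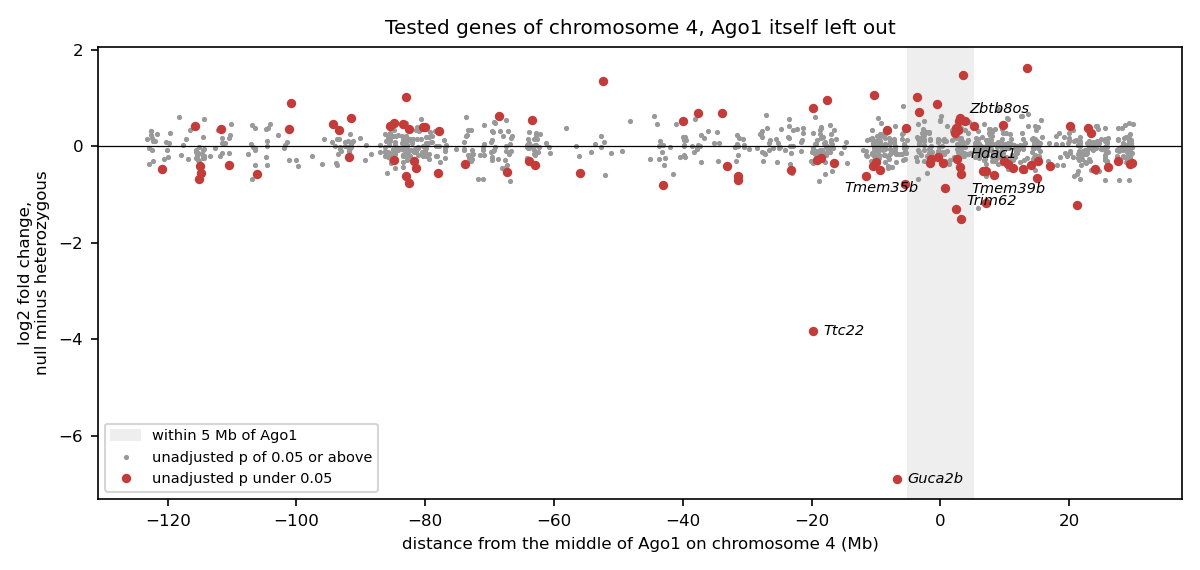
Log2 fold change of null minus heterozygous round spermatids for the tested genes of chromosome 4, against the distance in Mb of the middle of each gene from the middle of Ago1, which is left out. Red points have an unadjusted p-value under 0.05, and the shaded strip marks 5 Mb on either side, where 21 of 138 genes are red.

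For a pair of genes on chromosome 4 outside that strip, a single heterozygous library with 0 counts made the groups overlap. Ttc22, a tetratricopeptide repeat protein, 19.8 Mb away, had 1.34, 2.86, 2.87 and 0 CPM in heterozygous and 0.0892, 0.0885, 0.149 and 0.158 CPM in null libraries. The wild-type libraries, at a mean of 0.232 CPM, lay near the null ones. The heterozygous library with 0 counts was replicate 4, so the groups overlapped. Within the parts the difference was -3.69 up to 60 and 1.42 above 60. The null values above 60 lie near 0.162 CPM, the largest level of 3 counts in a null library, so the second difference is near the floor. DESeq2 called Ttc22 (adjusted p = 0.00828) and edgeR did not with all libraries (adjusted p = 0.578), but did without replicate 4. Guca2b, a peptide ligand of guanylate cyclase C, was singled out after its values were seen. It had 0.750, 0.996, 0.895 and 0 CPM in heterozygous libraries and 0 counts in every null and wild-type library (edgeR adjusted p = 0.622).

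Among named protein-coding genes of the whole genome with a mean of 5 CPM or more, the 10 higher in the null with the smallest p-values and no overlap included Abtb2, Acot12, Cd24a, Haus7, Mppe1, Parva, Traf1, Upk3bl and Zbtb8os, with log2 fold changes from 0.49 to 1.15. None of the 10 passed edgeR (adjusted p = 0.622 for each). DESeq2 called Abtb2, Acot12, Cd24a and Haus7. Cd24a, a small surface glycoprotein, stood at 5.62, 4.33, 6.03 and 6.75 CPM in heterozygous and 11.2, 11.2, 7.95 and 9.02 CPM in null libraries (log2 fold change 0.80, SE 0.18, DESeq2 adjusted p = 0.0185). Acot12, an acetyl-CoA hydrolase, stood at 4.02, 3.38, 4.10 and 4.2 CPM against 7.22, 6.15, 5.53 and 7.59 CPM (log2 fold change 0.75, SE 0.18, DESeq2 adjusted p = 0.0439). The groups of both genes did not overlap.

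The 10 lower genes chosen in the same way included Cdca7l, Fmnl1, Grin2d, Hdac1, Inafm2, Slc19a2, Tbc1d22b, Tmem39b and Zfp865, with log2 fold changes from -0.79 to -0.42. Grin2d, a subunit of NMDA-type glutamate receptors, stood at 50.1, 51.0, 54.4 and 42 CPM in heterozygous and 20.8, 28.4, 33.2 and 31.6 CPM in null libraries. It was the largest of these differences (log2 fold change -0.79, SE 0.15, edgeR adjusted p = 0.296, DESeq2 adjusted p = 0.00309), and within the parts it was -1.09 up to 60 and -0.37 above 60. Slc19a2, a thiamine transporter, stood at 16.1, 22.6, 20.4 and 16.2 CPM against 12.8, 13.5, 13.4 and 12.4 CPM (log2 fold change -0.53, SE 0.13). It passed neither tool, although its groups did not overlap.

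Among the other genes called by DESeq2, Adamts12, a secreted metalloprotease, stood at 0.589, 0.216, 0.754 and 0.498 CPM in heterozygous and 2.14, 2.03, 1.42 and 1.53 CPM in null libraries (log2 fold change 1.79, SE 0.35, edgeR adjusted p = 0.419, DESeq2 adjusted p = 0.00458). Gm34220, an unclassified transcript, stood at 4.44, 3.72, 4.71 and 4.15 CPM against 2.68, 2.08, 2.13 and 1.16 CPM, and the transcribed pseudogene 4930471M09Rik at 6.75, 7.45, 7.87 and 6.80 CPM against 4.28, 4.78, 3.58 and 4.43 CPM. Both were lower in every null library, although transcripts of 4930471M09Rik share 11.3% of their 31-base words with the vomeronasal receptor gene Vmn1r54. At a higher level, 1700018L02Rik stood at 83.1, 97.3, 101 and 81.9 CPM in heterozygous and 47.1, 60.3, 67.7 and 68.6 CPM in null libraries, without overlap (log2 fold change -0.58, SE 0.13, edgeR adjusted p = 0.622, DESeq2 adjusted p = 0.0439). Of the 19 genes that DESeq2 called, 18 had groups without overlap, and 18 had the same direction in libraries numbered up to 60 and above 60, Ttc22 being the exception, compared with 37.2% of all tested genes. The calls themselves rest on all 8 libraries, so these counts are a description.

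The 7 lists of stage markers came from single cells of wild-type males in the study, not from these libraries, and they differed between the genotypes by small amounts. Late round spermatid genes were higher in the null in 64 of 64 tested members (median log2 fold change 0.26), early round spermatid genes in 83 of 98 (median 0.11) and elongating spermatid genes in 56 of 64 (median 0.12). In turn, leptotene/zygotene genes were higher in 9 of 93 (median -0.20), pachytene genes in 11 of 90 (median -0.20) and diplotene/M1/M2 genes, which span diplotene and the meiotic divisions, in 4 of 96 (median -0.20). Spermatogonial genes were split, with 54 of 96 higher (median 0.05). Over all tested genes, 46.6% were higher and the median was -0.02. No member of any of these lists was called by edgeR or DESeq2. At an unadjusted p-value under 0.05 there were 5 late round spermatid genes higher (7.81% of the list) and 16 diplotene/M1/M2 genes lower (16.7%), beside 3.74% and 4.0% of all genes in these directions. Of the other lists, 6 spermatogonial genes (6.25%), 2 early round spermatid genes (2.04%) and 0 elongating spermatid genes were higher at this level, and 6 leptotene/zygotene genes (6.45%) and 2 of 90 pachytene genes were lower.

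Among the members, H2al3, a testis histone variant gene on the X chromosome, stood at 54.4, 33.1, 26.3 and 63.3 CPM in heterozygous and 87.9, 76.3, 58.4 and 55.8 CPM in null libraries (log2 fold change 0.66, SE 0.23, edgeR adjusted p = 0.622). Iqcf1, another late round spermatid gene, stood at 196, 110, 113 and 192 CPM against 275, 219, 177 and 180 CPM. For both, heterozygous replicates 2 and 3 were the low libraries. Heterozygous replicate 4 lay within the null range for both genes, and heterozygous replicate 1 for Iqcf1. Of the diplotene/M1/M2 genes, Ckap4, a membrane protein of the endoplasmic reticulum, stood at 145, 151, 162 and 148 CPM against 113, 126, 128 and 127 CPM without overlap (log2 fold change -0.29, SE 0.09, edgeR adjusted p = 0.622). Adam1b, a sperm surface protein, stood at 220, 240, 270 and 228 CPM against 178, 192, 200 and 200 CPM, also without overlap (log2 fold change -0.32, SE 0.11, edgeR adjusted p = 0.622).

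Library by library, the stage pattern did not follow genotype alone. Relative to the mean of the 8 libraries, the median late round spermatid gene was at 0.35, -0.65, -0.57 and 0.23 on the log2 scale in heterozygous and at 0.45, 0.31, 0.01 and -0.09 in null libraries. The median pachytene gene was at -0.04, 0.60, 0.06 and -0.25 in heterozygous and at -0.36, -0.44, 0.25 and 0.20 in null libraries. None of the 7 lists had groups without overlap. Within the library number parts the differences went in opposite directions: for late round spermatid genes the median difference was 0.67 up to 60, with 64 of 64 higher in the null, and -0.255 above 60, with 0 of 64 higher.

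The other lists changed sign between the parts as well. For pachytene genes the median difference was -0.67 up to 60 and 0.475 above 60, for leptotene/zygotene genes -0.45 and 0.09, for diplotene/M1/M2 genes -0.32 and 0.11, for early round spermatid genes 0.30 and -0.16, for elongating spermatid genes 0.50 and -0.29, and for spermatogonial genes -0.05 and 0.335. The part above 60 had a single heterozygous library. When single libraries were left out, the late round spermatid median ranged from 0.12 without heterozygous replicate 2 to 0.50 without heterozygous replicate 1. The elongating spermatid median ranged from -0.03 to 0.41 over the same libraries, and the pachytene median from 0.04 without heterozygous replicate 2 to -0.32 without null replicate 3. The leptotene/zygotene median was -0.11 without null replicate 1, and without heterozygous replicate 2 the diplotene/M1/M2 median was -0.13 and the early round spermatid median 0.05.

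**Figure D4:**
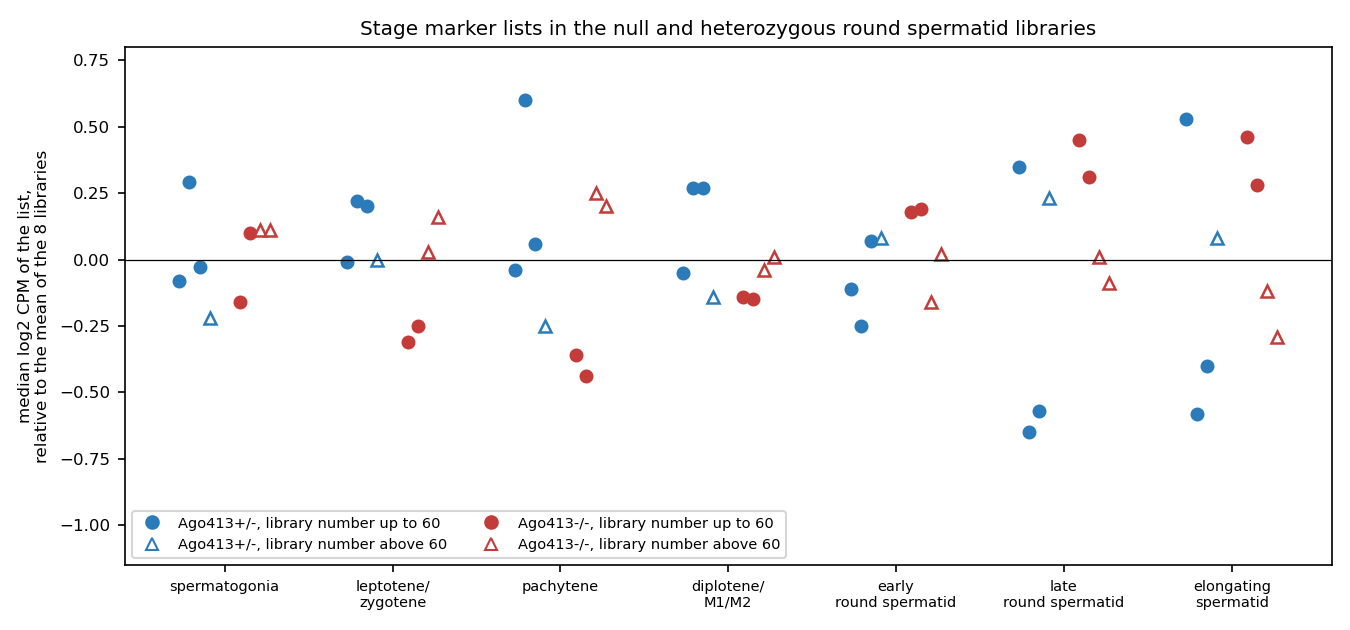
Median log2 CPM of the members of 7 stage marker lists in each heterozygous (blue) and null (red) library, relative to the mean of the 8 libraries, with filled circles for library numbers up to 60 and open triangles above 60. For late round spermatid genes the null circles sit above the circles of heterozygous replicates 2 and 3, whereas the null triangles at 0.01 and -0.09 sit below the heterozygous triangle at 0.23.

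Genes of the condensing sperm nucleus followed the late stage lists. All 7 genes of protamines, transition proteins and spermatid linker histones were higher in the null (median log2 fold change 0.32), and none passed the test. The median ranged from 0.155 without heterozygous replicate 3 to 0.555 without heterozygous replicate 1. Tnp1, which packs DNA between the histone and the protamine stage, stood at 4986, 2624, 2393 and 5093 CPM in heterozygous and 7252, 5306, 4366 and 4345 CPM in null libraries (log2 fold change 0.49, SE 0.25, edgeR adjusted p = 0.660). Prm2, a protamine, stood at 15521, 5670, 6021 and 9572 CPM against 13513, 11899, 8007 and 7037 CPM (log2 fold change 0.14, SE 0.30), and its sign turned when heterozygous replicate 2, heterozygous replicate 3 or null replicate 1 was left out. In both genes heterozygous replicates 2 and 3 were the lowest libraries, and the groups overlapped. Within the parts the median difference of the list was 0.71 up to 60, with 7 of 7 higher, and -0.225 above 60, with 0 of 7 higher. The 7 testis serine kinase genes were also all higher (median 0.18, from 0.03 without heterozygous replicate 2 to 0.42 without heterozygous replicate 1), as with Tssk1 at 420, 342, 415 and 486 CPM against 558, 548, 441 and 474 CPM. Up to 60 the kinase genes were higher in 7 of 7 (median difference 0.56) and above 60 in 1 of 7 (median -0.155).

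For the acrosome, the flagellum and fertilization the lists gave no common direction. Of 25 acrosome genes 14 were higher (median 0.01), of 7 sperm-egg fusion genes 4 (median 0.04), and of 18 testis Adam genes 8 (median -0.06). Within the parts the acrosome median was 0.11 up to 60 and -0.12 above 60, and that of the fusion genes 0.14 and -0.21. Outer dense fiber and fibrous sheath genes were higher in 13 of 14 (median 0.10, -0.01 without heterozygous replicate 2), while axoneme genes were higher in only 4 of 22 (median -0.25, and -0.09 without null replicate 1). Up to 60, 14 of 14 outer dense fiber and fibrous sheath genes were higher (median difference 0.35) and above 60, 0 of 14 (median -0.20). For the axoneme the medians were -0.47 up to 60 and -0.02 above 60, where 11 of 22 genes were higher. Dnah17, an axonemal dynein heavy chain of the sperm tail, stood at 409, 503, 532 and 466 CPM in heterozygous and 171, 317, 467 and 427 CPM in null libraries (log2 fold change -0.47, SE 0.22, edgeR adjusted p = 0.652). Without null replicate 1 its fold change was -0.22. Null replicates 1 and 2 were the low libraries, and replicates 3 and 4 lay within the heterozygous range. Slc9c1, the sperm sodium-proton exchanger, stood at 125, 149, 160 and 128 CPM against 71.4, 81.0, 109 and 136 CPM, with null replicate 4 alone in the heterozygous range (log2 fold change -0.50, SE 0.20, edgeR adjusted p = 0.622). Of 14 tested genes of CatSper and sperm ion channels 4 were higher (median -0.08), and of 10 regulators of spermatid transcription 2 (median -0.07). Adam4, Acrv1 and Zp3r, whose proteins the study stained, differed by 0.16, 0.09 and -0.00 on the log2 scale.

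Genes of the microRNA and piRNA pathways, of deadenylation and decapping and of translational control were mostly at slightly lower levels in the null over all libraries. Of 9 microRNA pathway genes, which make microRNAs or bind Argonautes, 1 was higher (median -0.08), and of 18 deadenylation and decapping genes 2 were higher (median -0.19). Xpo5, which exports microRNA precursors, stood at 67.1, 75.8, 83 and 71.2 CPM in heterozygous and 55.7, 61.8, 67.5 and 67.4 CPM in null libraries (log2 fold change -0.23, SE 0.11, edgeR adjusted p = 0.641), and null replicates 3 and 4 reached the edge of the heterozygous range. Tnrc6c, a GW182 protein, stood at 79.4, 87.0, 91.9 and 76.6 CPM against 48.9, 67.0, 81.7 and 76.9 CPM (log2 fold change -0.29, SE 0.14, edgeR adjusted p = 0.658). Without null replicate 1 its fold change was -0.13, and within the parts the difference was -0.59 up to 60 and 0.05 above 60. Dicer1, which cuts microRNAs from their precursors, overlapped widely, at 8.78, 9.83, 8.05 and 4.09 CPM against 4.55, 6.55, 8.10 and 8.81 CPM. The median of the microRNA pathway list ranged from -0.255 without heterozygous replicate 4 to -0.04 without null replicate 1. Of 19 genes of the piRNA pathway and chromatoid body 3 were higher (median -0.14), as were 3 of 14 genes of germ cell translational control (median -0.12). Up to 60, 1 of 9 microRNA pathway, 2 of 18 deadenylation and decapping and 3 of 19 piRNA genes were higher, and above 60, 5 of 9, 12 of 18 and 13 of 19. Translational control genes were higher in 4 of 14 up to 60 and in 5 of 14 above 60. The deadenylation median was -0.085 without null replicate 1 and the piRNA median -0.03 without heterozygous replicate 2, and the translational control median was -0.24 without null replicate 4. None of these genes was called by either tool.

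Meiotic genes had lower values in the null in most cases over all libraries, and higher values in most cases in the part above 60. Of 13 synaptonemal complex and cohesin genes 2 were higher (median -0.20), of 14 meiotic recombination genes 1 (median -0.09), of 16 pachytene regulator and meiotic division genes 4 (median -0.06), and of 18 genes for meiotic silencing and the damage response 2 (median -0.29). In the last list Atr, the kinase that marks unsynapsed chromosomes, stood at 78.9, 132, 101.7 and 72.8 CPM in heterozygous and 32.6, 38.0, 105 and 119 CPM in null libraries (log2 fold change -0.39, SE 0.34, edgeR adjusted p = 0.759). Mdc1, the adaptor that spreads the damage mark over the sex chromosomes, stood at 80.0, 120, 113 and 93.3 CPM against 52.7, 62.4, 98.2 and 93.5 CPM (log2 fold change -0.40, SE 0.19, edgeR adjusted p = 0.648). In both, null replicates 1 and 2 were the lowest of the 8 libraries, and null replicates 3 and 4 were inside the heterozygous range. The median of this list was -0.115 when null replicate 1 was left out, and that of the synaptonemal complex and cohesin genes -0.05. The recombination median ranged from -0.18 without null replicate 4 to -0.03 without heterozygous replicate 2. The 8 spermatocyte markers had 1 member higher (median -0.21), a median that became 0.01 without heterozygous replicate 2. Above 60, members higher in the null were 9 of 13 synaptonemal complex and cohesin genes (median difference 0.25), 9 of 14 recombination genes (0.21), 9 of 16 pachytene regulators (0.13), 14 of 18 silencing and damage response genes (0.28) and 8 of 8 spermatocyte markers (0.42). Up to 60 the same medians were -0.32, -0.28, -0.24, -0.66 and -0.58.

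Chromatin regulators were examined because Hdac1 belongs to them. Of 18 tested genes for class I histone deacetylases and their partners 3 were higher in the null (median -0.13), and 4 had all null libraries below all heterozygous ones (22.2%, with 2.43% over all genes). One of the 4 was Hdac1, for which the list was chosen, so the count is no independent measure. The other 3 were Mta1 and Chd3 of the NuRD complex and Rcor1 of the CoREST complex. Mta1 stood at 65.5, 73.8, 73.2 and 65.1 CPM against 45.3, 51.6, 61.4 and 55.1 CPM (log2 fold change -0.38, SE 0.12, edgeR adjusted p = 0.622). Of 19 Polycomb repressive complex 1 genes 6 were higher (median -0.14), and of 15 BAF remodeler genes 2 (median -0.17). Without null replicate 1 the Polycomb median was -0.01, the BAF median -0.08 and that of the deacetylases and partners -0.07. Above 60, 13 of 19 Polycomb genes (median difference 0.205) and 9 of 15 BAF genes (0.015) were higher, against 3 of 19 (-0.20) and 2 of 15 (-0.30) up to 60. For the deacetylases and partners the medians were -0.18 up to 60 and -0.075 above 60.

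X-linked genes lay slightly higher in the null as a whole. Of 733 tested X-linked genes 464 were higher (63.3%), and the median X-linked log2 fold change lay 0.13 above the autosomal median, the single autosomes lying between -0.03 and 0.02 of it. The shift kept its sign in all 16 alternative fits and ranged from 0.11 to 0.17. At an unadjusted p-value under 0.05, 64 of the 733 X-linked genes were higher and 5 lower (together 9.41%). Over all genes 7.74% passed this level, 3.74% higher and 4.0% lower. The groups did not overlap for 15 X-linked genes with the null above and 5 with it below (together 2.73%). Over all genes this share was 4.04%, with 1.61% above and 2.43% below. With edgeR none was called (smallest adjusted p = 0.622), and DESeq2 called Haus7. Haus7, a subunit of the augmin complex of the spindle, stood at 10.3, 10.5, 11.1 and 13.1 CPM in heterozygous and 16.8, 15.5, 15.3 and 15.9 CPM in null libraries, without overlap (log2 fold change 0.49, SE 0.13, DESeq2 adjusted p = 0.0421). Awat2, a wax synthase, stood at 1.23, 1.17, 1.32 and 1.33 CPM against 2.41, 2.34, 2.05 and 1.85 CPM, also without overlap.

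The libraries themselves did not separate by X-linked level. X-linked genes took 1.25, 1.06, 1.02 and 1.30% of the counts in heterozygous and 1.44, 1.37, 1.29 and 1.26% in null libraries. Subtracting the autosomal mean log2 CPM from the X-linked one gave -1.38, -1.22, -1.31 and -1.14 in heterozygous and -1.12, -1.14, -1.14 and -1.16 in null libraries. Heterozygous replicate 4, whose number is above 60, lay within the null range on both measures, and within the parts 61.7% of X-linked genes were higher up to 60 and 47.6% above 60 (median difference 0.15 and -0.03). The null libraries were alike while the heterozygous libraries spread. Of 186 tested Y-linked genes 134 were higher (72%). Many Y-linked genes are multicopy, and their reads often fit several places.

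**Figure D5:**
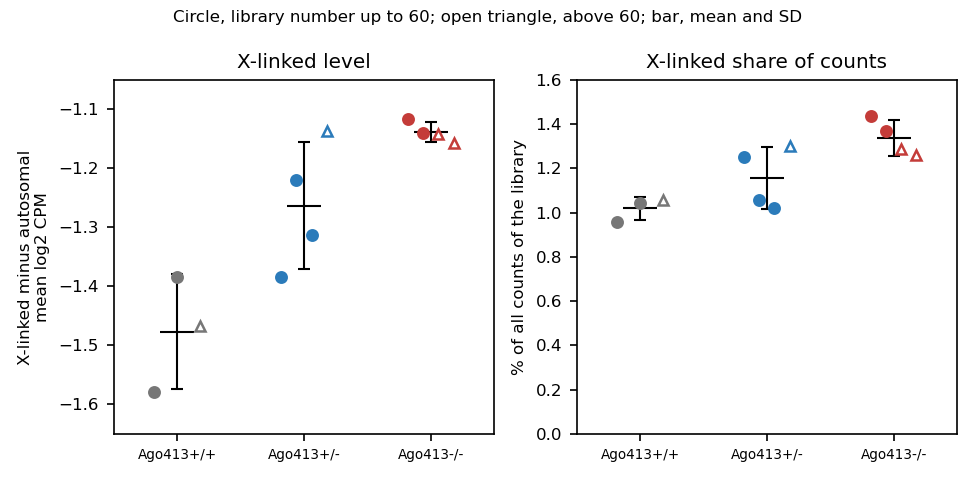
Left, mean log2 CPM over X-linked genes less the mean over autosomal genes, for each round spermatid library, and right, the share of counts from X-linked genes in percent, by genotype, with circles for library numbers up to 60, open triangles above 60, and a bar at the mean with the SD. The heterozygous triangle sits at the level of the null libraries in both panels.

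Markers of somatic cells were measured beside these results, because the fractions are enriched and not pure. Of 11 macrophage markers 10 were higher in the null (median 0.47, but 0.23 without heterozygous replicate 4), with sums of 84.8, 48.1, 38.6 and 46.9 CPM in heterozygous and 75.0, 68.1, 64.2 and 51.7 CPM in null libraries. Lyz2, a lysozyme of macrophages and neutrophils, stood at 2.36, 1.04, 0.707 and 0.995 CPM against 3.12, 2.03, 2.46 and 2.79 CPM (log2 fold change 1.04, SE 0.32, edgeR adjusted p = 0.622), and Apoe, the most abundant, at 43.1, 16.3, 16.6 and 25.0 CPM against 41.5, 33.8, 21.8 and 17 CPM. All 10 Sertoli markers were higher (median 0.30, but 0.05 without heterozygous replicate 1), with sums from 119 to 415 CPM in heterozygous and from 260 to 473 CPM in null libraries. For Leydig cells 6 of 7, for peritubular myoid cells 3 of 5, for endothelial cells 2 of 4, for erythrocytes 1 of 3 and for spermatogonia 2 of 8 markers were higher, and no marker of any of these lists was called. Within the parts the macrophage median was 0.29 up to 60 and 0.43 above 60, the Sertoli median 0.40 and 0.01, the spermatogonial marker median -0.275 and 0.49, and the endothelial median 0.40 and -0.62. Defining genes such as Wt1 and Sox9 of Sertoli cells were present in all libraries, and the part of these cells in the differences above was not tested.

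Genes of general cell functions were counted as well. Of 76 tested cytosolic ribosomal protein genes 73 were higher in the null (median 0.14, but 0.05 without null replicate 1), and within the parts the median difference was 0.29 up to 60 and 0.00 above 60. All 10 tested protein-coding mitochondrial genes were lower (median -0.34, and -0.23 without null replicate 2). Of all 13 tested genes of the mitochondrial chromosome 1 was higher (median -0.31). Within the parts the protein-coding median was -0.40 up to 60, with 2 of 10 higher, and -0.52 above 60, with 0 of 10 higher. An example was mt-Nd4, at 346, 301, 305 and 354 CPM against 204, 153, 259 and 302 CPM (log2 fold change -0.51, SE 0.18, edgeR adjusted p = 0.622). In this gene null replicate 4 alone reached the heterozygous range. The mitochondrial share of all counts was between 0.623 and 0.917% in heterozygous and between 0.538 and 0.815% in null libraries. Nuclear genes of the respiratory chain (46 of 78 higher, median 0.02) and of the proteasome (22 of 45 higher, median -0.00) had medians near 0, as did glycolysis genes (15 of 21, median 0.06), heat shock genes (8 of 17, median -0.03) and clustered histone genes (10 of 18, median 0.09). Of 8 immediate early genes 2 were higher (median -0.20). Within the parts the glycolysis median was 0.27 up to 60 and -0.17 above 60, the heat shock median -0.24 and 0.05, the clustered histone median 0.13 and -0.035, and the immediate early median -0.15 and 0.07.

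Whether null and heterozygous cells differ in another way in spermatids than in spermatocytes was tested in a joint fit with the spermatocyte libraries of the series. The fit held 21 libraries, with 3 null and 3 heterozygous spermatocyte libraries, and left out those that the labels call outliers, 1 of them a heterozygous and 1 a wild-type spermatocyte library. Of 19884 genes, 0 differed between the fractions with edgeR (0%, smallest adjusted p = 0.858), while 936 had an unadjusted p-value under 0.05, and DESeq2 also called 0 (1081 at an unadjusted p-value under 0.05, smallest adjusted p = 0.0674). Most libraries have a partner of the other fraction with the consecutive number, and a block for such pairs, on the 18 libraries that have one, also gave 0. The smallest DESeq2 value was that of Rgs2, a regulator of G-protein signalling, which was named after its values were seen. In round spermatids it stood at 0.643, 1.99, 0.989 and 1.27 CPM in heterozygous and 3.57, 2.43, 2.84 and 2.79 CPM in null libraries, without overlap. The log2 fold change was 1.23 (SE 0.30) there and -0.98 (SE 0.36) in spermatocytes, a difference of 2.26 (SE 0.46) that passed neither tool. For Gm10093 the log2 fold change of null against heterozygous cells was 0.89 (SE 0.19) in spermatocytes, and its difference from the round spermatid value was 0.00 (SE 0.25). For Tmem39b it was -0.21 (SE 0.12) in spermatocytes, with a difference of -0.33 (SE 0.16), and for Grin2d -0.10 (SE 0.22), with a difference of -0.66 (SE 0.30, interaction adjusted p = 0.858 in edgeR). With these errors, differences of this size between the fractions could not be shown.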

How the data were processed

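Poly(A) RNA of enriched round spermatids was sequenced from strand-specific libraries. Per the paper's methods and the labels, reads were trimmed with Trim Galore, aligned to mm10 with STAR and counted per gene with its gene counting option, and the authors deposited the raw counts for all 24 libraries without normalization. Tool versions, the annotation release and the strand column are not given in the sources used here. That option keeps reads that align to 1 place, which drops reads shared by near-identical copies or places them by the few bases that differ. All 55536 identifiers were found in GENCODE mouse release 21 (GRCm38), which supplied symbols, positions and transcripts.

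Groups and replicate numbers came from the labels. Genes with 10 or more counts in at least 3 of the 8 null and heterozygous libraries were tested with edgeR 4.0.16 (R 4.3.3), by the two-sided quasi-likelihood test with TMM scaling over 11 libraries of 3 genotypes, and a gene was called where the Benjamini-Hochberg adjusted p was below 0.05 with a log2 fold change over 0.5 in size. SE is the fold change divided by the square root of the F statistic. DESeq2 1.42.0 was an alternative. Where nothing else is named, adjusted p-values are those of edgeR. Differences within library number parts are means of log2 CPM with a prior count of 2. Nothing says that pools of one genotype came from separate litters, so p-values measure the spread between these libraries, which may in part be technical. Replicates were not repeat deposits (chi-square per gene between 9.91 and 76.5). The fit was tested on simulated data before use. Alignments to the Hdac1 messenger used Biopython 1.88.

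Named genes were Ago1 to Ago4, every called gene, the 10 higher and 10 lower protein-coding genes (no Gm or Rik symbol, mean of 5 CPM or more, groups without overlap) with the smallest p-values, up to 10 DESeq2 calls, and up to 4 members of a described list by p-value, plus the most abundant of a marker list. Dicer1, Atr, Wt1, Sox9, Tmem35b, AU040320, Guca2b, 1700018L02Rik and Rgs2 were named outside that rule, after their values were seen. Some genes that the rule names are not reported here. The comparison, members and lists were chosen with earlier results of these data known. Alternatives were another scaling, tool, filter, set of libraries, a block for replicate numbers, a term for library numbers and leaving out each library.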

Additional observations from a re-analysis of the deposited data

Results flagged for a closer look

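In 3 of 100 groups of 4 libraries that were examined, one library stood apart from the other 3 by more than Dixon's 95% limit for the gap over the range, a limit that chance passes in about 1 of 20 groups. Ago4 was at 14.6 CPM in heterozygous replicate 2, with a gap of 0.869 of the range. Hdac1 was at 215 CPM in heterozygous replicate 3 (gap 0.886), and Zfp865 at 19.3 CPM in the same library (gap 0.834). In each case the library that stood apart was the highest heterozygous one, on the side away from the null libraries.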

How the results depend on the processing

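The number of genes called between null and heterozygous round spermatids was 1 with edgeR and stayed 1 with RLE scaling, with only the 8 compared libraries, with the outlier wild-type library added, with no threshold on the fold change and with a term for the library number. It was 19 with DESeq2 and 3 with no filter on low counts (Ago1, Gm10093 and Ttc22). With 10 or more counts required in all 8 libraries it was 0, since that filter removes Ago1 by its construction, and with unadjusted p-values under 0.05 it was 1462. Over the fits that each left out 1 library it ranged from 1 to 2. With the replicate number as a block it was also 1. The numbers do not pair the libraries, since deviations of null and heterozygous libraries with the same number correlated at 0.115, -0.278, 0.039 and -0.277. With consecutive library numbers as a block across the fractions, 0 genes differed between fractions. Ago1 kept its direction in every fit that tested it. Precision is limited by 4 pools per genotype, with a median SE of 0.21 on the log2 scale, and adjustment over all genes left even Gm10093 at 0.85 (SE 0.13) above the threshold. Medians of lists that had the other sign without heterozygous replicate 2 included those of pachytene (0.04), elongating spermatid (-0.03), outer dense fiber (-0.01) and spermatocyte marker genes (0.01), and so did that of spermatogonial stage genes (-0.05) without heterozygous replicate 4.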
